A study of Homo sapiens with 24 samples.

Results

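The change in gene expression between 24 h and 72 h of continued drug was examined in AsPC-1 cells. AsPC-1 is an established human pancreatic ductal adenocarcinoma line. Palbociclib, labelled PD-0332991, blocks the kinases CDK4 and CDK6 and was given at 5 µM. The comparison set 3 treated cultures taken at 72 h against 3 treated cultures taken at 24 h, 6 of the 24 arrays of the series, chosen by the line, treatment and time in the labels. The other 18 arrays held AsPC-1 vehicle cultures at 24 h and 72 h (3 each) and the same 4 groups of COLO-357, another established pancreatic ductal adenocarcinoma line. AsPC-1 was grown in RPMI 1640 and COLO-357 in DMEM, so the effects of line and of medium cannot be told apart. The labels name no genetic change in these groups, and each is a culture of 1 cell line without stroma. The design text gives the 3 cultures of a group as biological triplicates, and the p-values measure the spread between these cultures.

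CDK4 and CDK6, bound to D-type cyclins, phosphorylate the retinoblastoma protein RB. Unphosphorylated RB holds E2F factors inactive, and their targets, which include genes of S phase entry and DNA replication, are then not transcribed. Genes of mitosis are switched on later in the cycle, through CHR promoter elements and CCAAT boxes, and are silenced by the DREAM complex when cells leave the cycle. CDK4/6 inhibitors hold cells with intact RB in G1. The question of the comparison was which genes recovered, which stayed changed and which changed further while the drug remained.

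Levels are normalised log2 intensities from Illumina bead arrays, and a change is the difference of group means with its standard error (SE) from limma. On the AsPC-1 arrays 16440 to 18586 probes were detected. In a principal component analysis of the AsPC-1 arrays the first component (25.1% of the variance) placed vehicle arrays at -33.87 to -14.43, drug 24 h arrays at 33.77 to 38.05 and drug 72 h arrays between them, at 7.88 to 11.22. The third component (13.2%) set the drug 72 h arrays apart at 24.57 to 27.17. Vehicle 24 h replicate 1 stood apart on the second component (14.6%) at 55.7, with the other 11 arrays at -19.77 to 5.56, and the median SD of its group was 0.248 log2 against 0.15 to 0.172 in the other groups. That array is in neither group of the 72 h against 24 h comparison under drug, but it enters every value set against 24 h vehicle. It also enters the spread pooled over all arrays, and so the SEs and p-values of the drug comparison. Without it 1672 probes were called under drug, against 1198 with it, and 855 against 490 were late.

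Between 24 h and 72 h of drug 1198 of 24750 probes passed an adjusted p of 0.05 (4.84%), of which 825 were higher at 72 h (3.33%) and 373 lower (1.51%). At least 2-fold changes were mostly rises, with 315 probes higher (1.27%) and 42 lower (0.17%). The balance of the calls depended on scaling, since the authors' scaled intensities gave 743 higher and 134 lower. Vehicle cultures changed at 535 probes over the same interval (2.16%), 335 higher (1.35%) and 200 lower (0.808%). In the authors' scaled intensities 739 were higher and 50 lower there, and with the 75th percentile scaling 237 and 70. A test of the difference between treated and vehicle cultures called 762 probes (3.08%), 466 higher (1.88%) and 296 lower (1.2%), and 470 probes (1.9%) were called both under drug and in that difference in the same direction.

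Probes were then sorted by what followed the 24 h response. At 24 h drug against vehicle called 2900 probes (11.7%). "Returned" probes moved back between 24 h and 72 h and were no longer called in the 24 h direction against 72 h vehicle, and "partly returned" probes moved back and were still called. "Stayed" probes were called at both times with no called change between them, and "further" probes moved on in the 24 h direction. Of the 1432 probes lower at 24 h (5.79%), 475 returned (1.92% of all probes), 68 partly returned (0.275%), 139 stayed (0.562%) and 6 fell further (0.0242%). Of the 1468 probes higher at 24 h (5.93%), 129 returned (0.521%), 12 partly returned (0.0485%), 271 stayed (1.09%) and 18 rose further (0.0727%). In both directions together 2.44% of probes returned, 0.323% partly returned, 1.66% stayed and 0.097% went further. A further 490 probes (1.98%), named late, had a called change under drug from 24 h to 72 h but no called 24 h response. Of them 264 were higher (1.07%) and 226 lower (0.913%). A missing 24 h call does not show that nothing had changed by then. Of these late probes 81 (0.327%) were also called in the difference from vehicle in the same direction. The remaining 1782 probes of the 24 h response (7.2%) passed neither later test, 1038 of them higher at 24 h (4.19%) and 744 lower (3.01%). Drug against vehicle at 72 h called 1499 probes (6.06%), 808 higher (3.26%) and 691 lower (2.79%). The direction of several classes depended on scaling. With the authors' scaled intensities the 24 h response had 2061 probes higher and 833 lower, stayed probes were 306 higher and 66 lower, further probes 32 and 2, late probes 264 and 73 and probes with neither later call 1664 and 318. The 75th percentile scaling gave 1546 higher and 1006 lower at 24 h, 20 and 2 further and 1203 and 446 with neither later call. The drug 24 h arrays enter the 24 h response and the later change with opposite signs, so these counts describe calls and are no test of recovery.

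**Figure D1:**
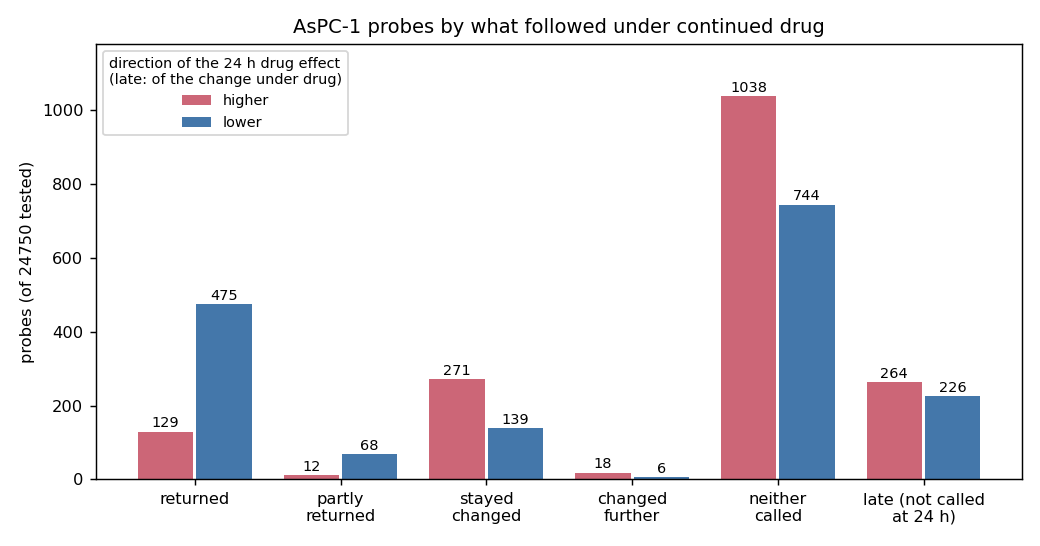
Bars give the number of probes (of 24750 tested) in each class, by the direction of the 24 h drug effect or, for late probes, of the later change. Returned probes that were lower at 24 h (475) outnumbered returned probes that were higher (129), while stayed probes were more often higher (271 against 139).

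Gene names were available for 605 genes, those of the authors' 6 lists of changed genes. The authors chose them on these samples or on a cyclin knockdown, so the direction of a named gene is not independent evidence. Among the named genes 147 returned from below, 38 partly returned from below, 40 stayed higher and 27 stayed lower. The 147 returned genes had a median change of 1.31 log2 between 24 h and 72 h of drug (0.52 to 2.45), and 100 of them stood in the authors' AsPC-1 24 h list. These values and the class come from the same arrays, so the rise is a description. The median of all tested probes was -0.01. Of the 605 named genes 234 were called between 24 h and 72 h of drug, against 4.84% of all probes. List counts below cover named genes only, so they are partly set by how the authors chose these genes. In bulk cultures a larger share of cells in a phase and more RNA per cell cannot be told apart.

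Genes that drive S phase entry, which act upstream of the replication and mitosis genes, had mostly returned by 72 h. CCNE2, cyclin E2, the partner of CDK2, read 5.23, 5.37 and 6.02 at 24 h of drug and 8.50, 7.40 and 7.82 at 72 h. All arrays at 72 h lay above those at 24 h, where the probe was detected on 1 of 3 arrays, and vehicle arrays at 72 h read 8.13 to 8.36. The rise was 2.37 ± 0.28 log2 (SE, n = 3 per group, limma adjusted p = 6.2e-06), and at 72 h CCNE2 was 0.32 below vehicle (log2 -0.32, adjusted p = 0.63). CDC25A, the phosphatase that activates CDK2, read 5.35, 4.97 and 5.13 at 24 h of drug, not well above background on any array, and 7.39, 6.78 and 7.71 at 72 h. It was at least 3.46-fold higher at 72 h (adjusted p = 3.6e-07), while vehicle arrays went down over the same interval (-0.81, adjusted p = 0.045). The promoter of CDC25A, which holds an E2F site, is shown because the gene was among those returned from below with the largest 24 h fall. It covers the 250 bases before the start at chr3:48188418-48188667, minus strand, in GRCh38.p14 (RefSeq), and capitals mark TTTGGCGC at -44 and CCAAT boxes, read as ATTGG, at -110 and -58.
CDC25A: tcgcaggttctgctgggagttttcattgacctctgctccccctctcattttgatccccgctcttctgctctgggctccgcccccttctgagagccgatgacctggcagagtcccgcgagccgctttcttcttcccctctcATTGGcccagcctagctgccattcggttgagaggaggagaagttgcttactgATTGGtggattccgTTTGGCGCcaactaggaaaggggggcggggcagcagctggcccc

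E2F2, an activating E2F, rose by 1.54 ± 0.17 (adjusted p = 1.9e-06) from 8.30, 7.68 and 8.20 to 9.93, 9.39 and 9.48. CDK2, the kinase that cyclin E activates, rose by 1.28 ± 0.13 and the repressor E2F7 by 0.89 ± 0.20 (adjusted p = 0.0069). With the authors' scaled intensities E2F7 changed by 0.37 and lost its call (adjusted p = 0.209). All 3 genes had arrays at 72 h above those at 24 h. CCND1, cyclin D1, the activating partner of CDK4 and CDK6, did not follow them. Its drug arrays read 12.67, 12.61 and 12.76 at 24 h and 12.64, 12.57 and 12.75 at 72 h, which overlapped, and the change was -0.03 ± 0.13 (adjusted p = 0.97). Of the 6 named genes of the CDK4/6-RB list 5 rose (3.33% of all probes) and 1, CCND1, did not pass, with a median of 1.41 log2.

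Of the 25 named genes of DNA replication 23 rose (3.33% of all probes), 0 fell and 2 did not pass, with a median of 1.44 log2. The mean level of the 25 genes was 8.90, 8.69 and 8.91 on the drug 24 h arrays and 10.21, 10.02 and 10.09 on the drug 72 h arrays, against 10.47, 10.28 and 10.36 in vehicle at 72 h. The 24 h and 72 h drug arrays did not overlap, and the 72 h arrays lay below the vehicle arrays. By class 20 of the genes returned and 3 partly returned. RRM2, the inducible subunit of ribonucleotide reductase, which makes deoxynucleotides, read 6.83, 6.46 and 7.17 at 24 h and 9.22, 9.22 and 9.29 at 72 h. These 72 h arrays also lay above the vehicle arrays of that time (9.01 to 9.21), by a difference that did not pass (0.17, adjusted p = 0.81). The rise under drug was 2.43 ± 0.24 (adjusted p = 4.6e-07), a 5.38-fold change.

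RRM1, the other subunit of that enzyme, rose by 1.12 ± 0.11 (adjusted p = 5.7e-07) and MCM7, a subunit of the replicative helicase, by 0.90 ± 0.13. Both ended within 0.26 log2 of vehicle (RRM1 -0.14, MCM7 -0.26), without a call at 72 h. TYMS, thymidylate synthase, rose from 9.05, 9.14 and 9.17 to 10.85, 10.85 and 10.84, a change of 1.72 ± 0.14 (adjusted p = 2.9e-08). It stayed below vehicle at 72 h (11.41, 11.25 and 11.37), by -0.50 (adjusted p = 0.028), and was thus partly returned. The members that did not pass were MCM8, a helicase of recombination repair (-0.12, adjusted p = 0.87), and RPA3, a subunit of the single-strand binding protein (0.34, adjusted p = 0.27). Repair genes of S phase followed the replication genes, with 9 of 10 higher (3.33% of all probes). EXO1, an exonuclease of mismatch repair, rose by 2.17 ± 0.21, FEN1, the flap endonuclease, by 1.18 ± 0.13 and ATAD2, a chromatin ATPase, by 1.12 ± 0.20. The exception was CHEK1, the S phase checkpoint kinase, at 0.42 ± 0.13 (adjusted p = 0.075), whose drug arrays nonetheless did not overlap (8.97, 8.93 and 8.87 against 9.38, 9.36 and 9.29). CHEK1 rose with a call in some alternative fits, for example without background correction (adjusted p = 0.0261).

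The largest gene group was mitosis and chromosome segregation. Of its 80 named genes 79 rose (3.33% of all probes), 0 fell and 1 did not pass, with a median of 1.51 log2. The exception was C6orf173 (CENPW), a centromere protein, at 0.70 (adjusted p = 0.21). At 24 h of drug 79 of the 80 had been lower than vehicle (5.79% of all probes), and at 72 h 20 still were (2.79%). By class 59 returned and 20 partly returned. Of the 80 genes 16 were not in the authors' AsPC-1 24 h list, and 15 of those 16 rose. The mean level of the 80 genes was 7.958, 7.811 and 8.004 at 24 h of drug, 9.407, 9.512 and 9.413 at 72 h of drug and 9.897, 9.909 and 9.837 in vehicle at 72 h. The drug 72 h arrays thus lay between the drug 24 h arrays and the vehicle arrays, overlapping neither.

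**Figure D2:**
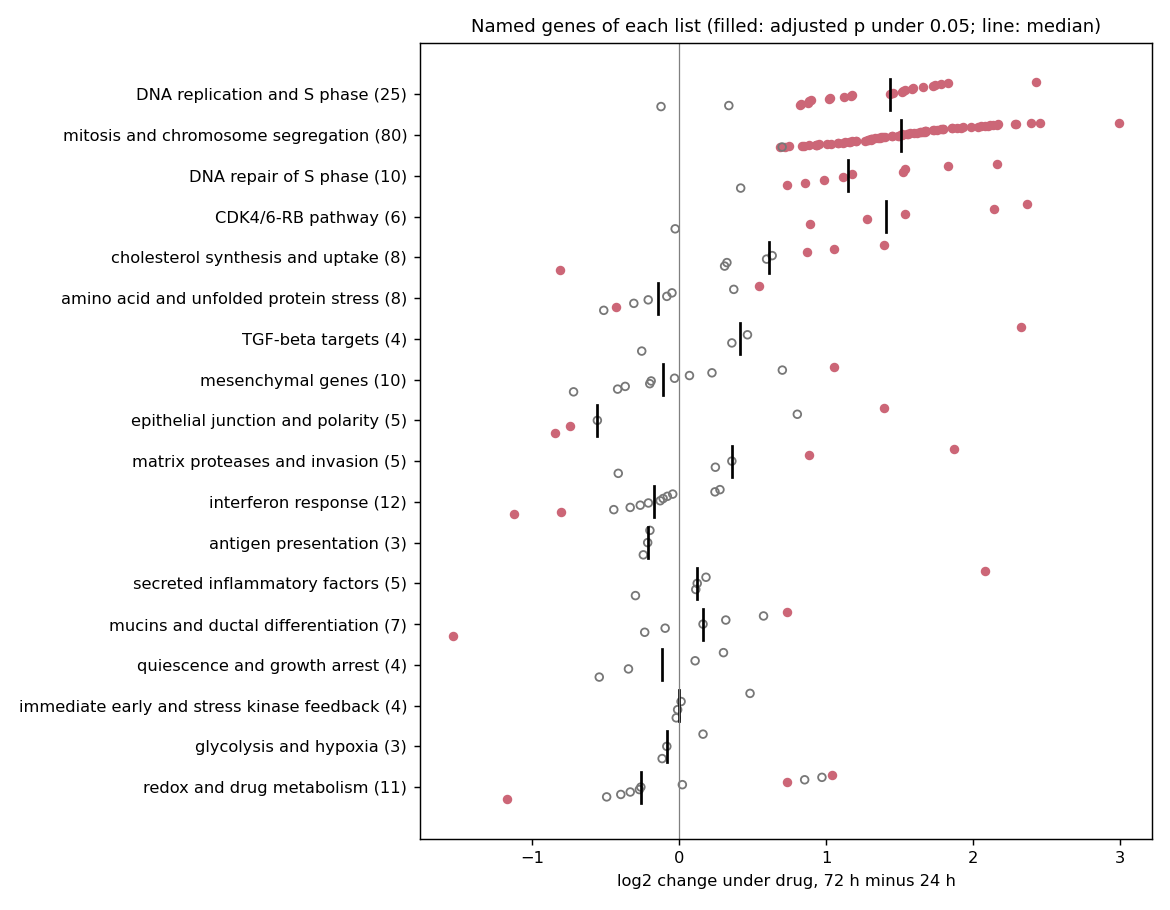
Each point is a named gene, placed by its log2 change under drug between 24 h and 72 h. Lists are in rows with the number of named genes in brackets, filled points passed an adjusted p of 0.05, and black lines are list medians. The lists of mitosis (median 1.51), replication (1.44) and the CDK4/6-RB pathway (1.41) lie to the right, and most other lists lie around 0.

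CENPA, the histone H3 variant of centromeres, had the largest change of all named genes. It read 5.73, 5.59 and 5.67 at 24 h of drug and 8.40, 8.85 and 8.73 at 72 h. The groups were far apart, and both lay below vehicle, which read 9.32 to 9.50 at 72 h. The rise was 2.99 ± 0.23 (adjusted p = 2.6e-08), a 7.97-fold change, and the gap to vehicle at 72 h was -0.77 (adjusted p = 0.049). KIF20A, a kinesin of cytokinesis, rose by 2.05 ± 0.22 from 7.59, 7.77 and 7.73 to 9.61, 9.99 and 9.65. It remained further from vehicle than CENPA did, at -1.03 (adjusted p = 0.0045), a difference between genes that was not tested. CCNA2, cyclin A2 of S phase and mitosis, rose by 1.99 ± 0.15 and ended at -0.72 from vehicle (adjusted p = 0.0042). PSRC1, a spindle protein, rose by 2.08 ± 0.16 and ended at -0.63 (adjusted p = 0.024). FAM64A (PIMREG), a regulator of the metaphase to anaphase step, was not well above background on the 3 drug 24 h arrays (5.02, 4.91 and 5.28), and was at least 3.63-fold higher at 72 h (7.34, 7.50 and 7.25). It was also the 1 mitosis gene called in vehicle over the same interval (0.70, adjusted p = 0.034), and at 72 h it lay 1.09 below vehicle (log2 -1.09).

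Other mitotic genes ended without a called gap to vehicle. CDC25C, the phosphatase that activates CDK1 at mitotic entry, read 5.61, 5.38 and 5.72 at 24 h (detected on 2 of 3 arrays) and 7.80, 8.30 and 7.96 at 72 h. It rose by 2.45 ± 0.21 (adjusted p = 6.8e-08), and the gap to vehicle was -0.55 (adjusted p = 0.13). HJURP, the chaperone that loads CENPA at centromeres, read 7.15, 6.81 and 7.40 at 24 h and 9.13, 9.35 and 9.37 at 72 h, with no overlap. It rose by 2.16 ± 0.20 (adjusted p = 1.3e-07) and ended at -0.52 from vehicle (adjusted p = 0.13). KIF4A, a chromosome-bound kinesin, rose by 2.10 ± 0.21 from 5.69, 5.54 and 5.64 to 7.49, 7.79 and 7.90, and none of these arrays overlapped.

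The kinetochore gene SPC25 (2.40 ± 0.19, detected on 1 of 3 arrays at 24 h), CDCA3, a trigger of mitotic entry (2.28 ± 0.20), TOP2A, the topoisomerase that untangles chromosomes (2.17 ± 0.23), and the mitotic kinase AURKB (2.03 ± 0.20) each returned. BIRC5, survivin, a partner of AURKB, rose by 1.78 ± 0.16 and ended at -0.13 from vehicle. HMGB2, a chromatin protein of dividing cells, rose by 1.56 ± 0.20. The smallest rises with a call in the list belonged to KIF22, a chromosome-arm kinesin (0.69 ± 0.11), CDC20, the activator of the anaphase-promoting complex (0.72 ± 0.13, adjusted p = 0.0012), and TUBB, a beta-tubulin (0.75 ± 0.20, adjusted p = 0.03). TUBB lost the call when any of 5 of the 6 treated arrays was left out, with adjusted p up to 0.166, and CDC20 when only the 6 treated arrays were fitted (adjusted p = 0.0531). The size of the rise of dim genes depended on background correction. Without it the log2 rise was 1.92 for CENPA, 1.45 for CDC25C, 1.40 for SPC25, 1.39 for CCNE2 and 1.21 for KIF4A, and with the authors' scaled intensities it was 1.76, 1.29, 1.23, 1.23 and 1.04, all with a call.

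**Figure D3:**
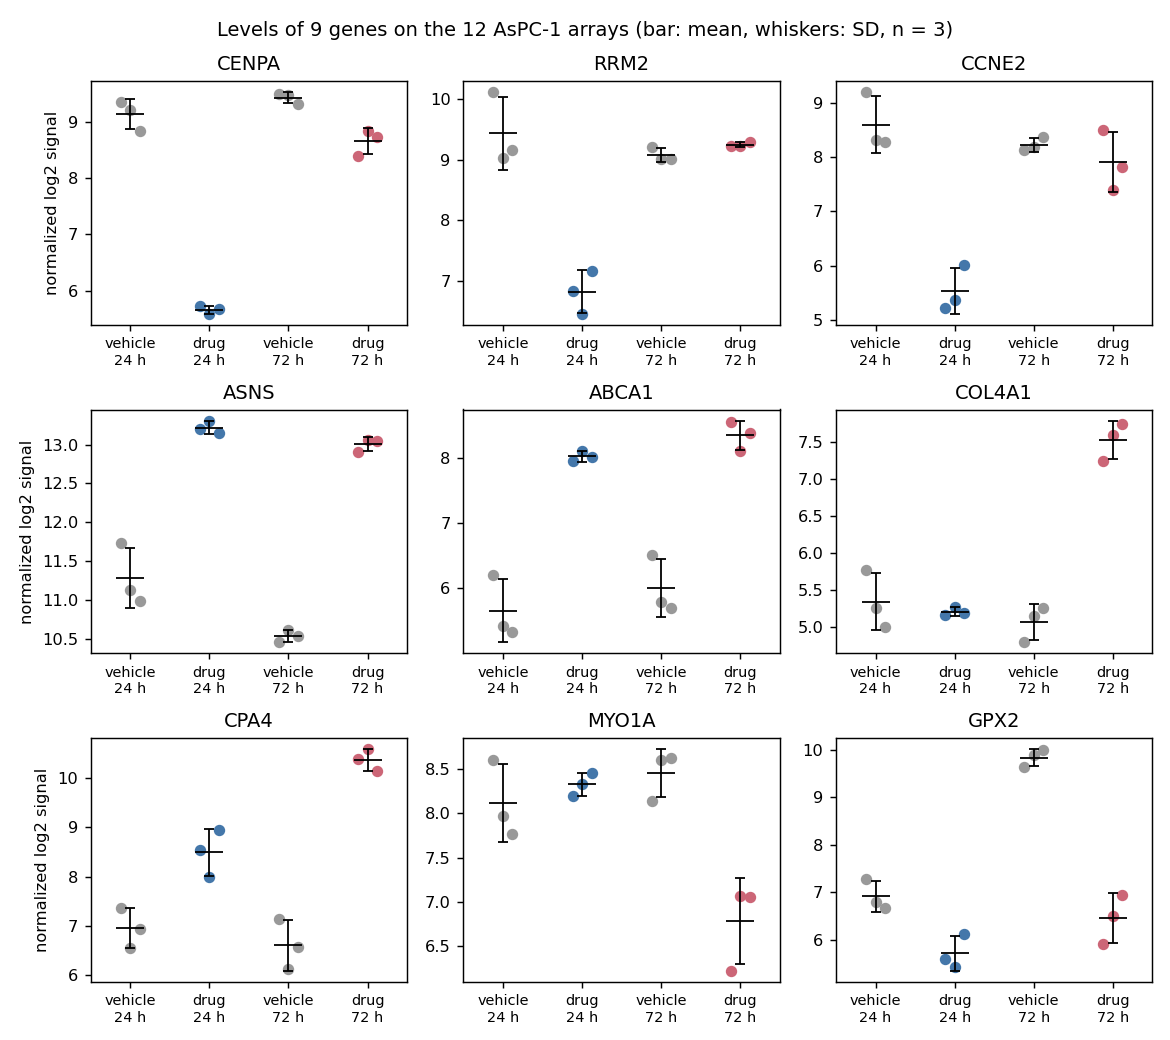
Points are normalised log2 signals of 9 genes on the 12 AsPC-1 arrays, with the mean as a bar and the SD as whiskers (n = 3). CENPA, RRM2 and CCNE2 were low at 24 h of drug and higher at 72 h, when CENPA still lay below all vehicle arrays, ASNS and ABCA1 were high at both times, COL4A1 and CPA4 were highest at 72 h of drug, MYO1A was lowest there, and GPX2 rose mainly in vehicle.

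The promoters of KIF4A, HJURP and CDC25C are shown because these were also among the genes returned from below with the largest 24 h fall. Those of KIF4A and HJURP hold a CHR element, while that of CDC25C holds neither a CHR element nor a CCAAT box. Each line gives the 250 bases before the start in GRCh38.p14 (RefSeq), KIF4A at chrX:70289854-70290103 on the plus strand, HJURP at chr2:233854536-233854785 and CDC25C at chr5:138338356-138338605 on the minus strand. Capitals mark the CHR element (TTTGAA, at -34 in KIF4A and -111 in HJURP), CCAAT boxes (CCAAT or ATTGG, at -58 in KIF4A and 4 times in HJURP) and, in CDC25C, a match to the amino acid response element TGATGNAA, read as TTCCATCA, at -185.
KIF4A: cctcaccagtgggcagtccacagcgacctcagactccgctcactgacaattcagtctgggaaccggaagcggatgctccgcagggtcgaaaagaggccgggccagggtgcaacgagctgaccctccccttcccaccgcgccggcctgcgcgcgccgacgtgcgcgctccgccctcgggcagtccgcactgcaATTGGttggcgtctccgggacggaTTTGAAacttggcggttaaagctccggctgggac
HJURP: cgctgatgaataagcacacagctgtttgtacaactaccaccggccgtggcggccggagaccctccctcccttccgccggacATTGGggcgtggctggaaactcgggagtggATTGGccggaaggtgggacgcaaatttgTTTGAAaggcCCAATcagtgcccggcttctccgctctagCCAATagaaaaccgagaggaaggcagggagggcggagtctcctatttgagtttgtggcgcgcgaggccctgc
CDC25C: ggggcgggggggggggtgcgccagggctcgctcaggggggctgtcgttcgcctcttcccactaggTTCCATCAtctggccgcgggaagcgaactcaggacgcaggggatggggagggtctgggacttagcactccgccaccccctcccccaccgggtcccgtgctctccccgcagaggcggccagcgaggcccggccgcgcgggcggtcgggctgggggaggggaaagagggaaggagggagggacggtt

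The motifs were searched on both strands in the 250 bases before the start. E2F sites were TTTCCCGC or TTTGGCGC, the CHR element was TTTGAA, the box was CCAAT and the amino acid response element was TGATGNAA, and no match shown overlapped another. Of the 105 named mitosis and replication genes 85 had a promoter in the RefSeq table. Among these 31 (36.5%) held the CHR letters, against 13.6% of all 27305 promoters. CCAAT boxes stood in 58 (68.2% against 33.0%) and either E2F sequence in 13 (15.3% against 1.96%), while the amino acid response element stood in 3 (3.53% against 3.19%). These are matches of letters and describe the promoters only.

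Genes of cholesterol synthesis and uptake formed a smaller group that returned in part of its members. Of 8 named genes 3 rose (3.33% of all probes), 1 fell (1.51%) and 4 did not pass. ACAT2, the cytosolic thiolase that feeds sterol synthesis, read 8.85, 8.43 and 8.83 at 24 h of drug and 10.08, 10.15 and 10.06 at 72 h. The 72 h arrays lay close to vehicle (10.19 to 10.23). The rise was 1.39 ± 0.15 (adjusted p = 9.6e-07). INSIG1, the sterol-regulated retention protein of SREBP, rose from 8.94, 8.90 and 9.50 to 10.04, 10.38 and 10.09, by 1.05 ± 0.23 (adjusted p = 0.0064). DHCR7, the last enzyme of cholesterol synthesis, rose by 0.87 ± 0.15 under drug and fell by 1.02 in vehicle, so that it lay above vehicle at 72 h (0.58, adjusted p = 0.019). HMGCS1, an early enzyme of the pathway, read 8.82, 8.87 and 9.62 and then 9.58, 9.88 and 9.75, which overlapped, and did not pass (0.63, adjusted p = 0.088). The member that fell was ABCG1, a sterol exporter, at -0.81 ± 0.14 (adjusted p = 0.00055), while it rose in vehicle (0.79, adjusted p = 0.0033). A second ABCG1 probe gave -0.76 without a call (adjusted p = 0.12).

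Other genes had no called change from their 24 h levels, which does not show that the level was unchanged. The treated arrays did not overlap for 18 of the 40 named genes that stayed higher and 16 of the 27 that stayed lower. The median change under drug was 0.03 log2 in the former and 0.30 in the latter. Among 8 named genes of amino acid and unfolded protein stress, 6 were higher than vehicle at 24 h (5.93% of all probes) and 8 at 72 h (3.26%). Between those times under drug 1 rose (3.33% of all probes), 1 fell (1.51%) and 6 did not pass. ASNS, asparagine synthetase, read 13.20, 13.31 and 13.15 at 24 h of drug and 12.91, 13.07 and 13.05 at 72 h. The arrays lay close together, the 72 h ones just below, and the change was -0.21 ± 0.15 (adjusted p = 0.53). In vehicle ASNS fell by 0.75 (log2 -0.75, adjusted p = 0.009), so its excess over vehicle was 1.94 at 24 h and 2.48 at 72 h. PSAT1, of serine synthesis, changed by -0.05 ± 0.16, PCK2, mitochondrial PEP carboxykinase, by -0.31 ± 0.16, and ADM2, a stress-induced peptide hormone, by -0.51 ± 0.19 (adjusted p = 0.13). Without background correction ADM2 fell with a call (-0.44, adjusted p = 0.0369). DDIT4, an inhibitor of mTORC1, changed by -0.08 (adjusted p = 0.91) and was called above vehicle at 72 h alone (1.04, adjusted p = 0.002). MTHFD2, a mitochondrial folate enzyme, rose by 0.54 ± 0.15 (adjusted p = 0.034), and WARS (WARS1), tryptophanyl-tRNA synthetase, went down by 0.43 (log2 -0.43 ± 0.12, adjusted p = 0.048). Both were borderline, since MTHFD2 lost the call without any of 5 of the 6 treated arrays (adjusted p up to 0.132) and WARS without any of the 6 (up to 0.148) or without vehicle 24 h replicate 2 or vehicle 72 h replicate 1 or 3.

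The sterol and phospholipid exporter ABCA1 also stayed higher. It read 7.95, 8.11 and 8.02 at 24 h of drug and 8.55, 8.11 and 8.39 at 72 h, above all vehicle arrays (5.34 to 6.52). The change under drug was 0.32 ± 0.22 (adjusted p = 0.5), and the excess over vehicle was 2.37 at 24 h, where 1 of 3 vehicle arrays detected it, and 2.34 at 72 h. SEL1L3 read 8.98, 8.93 and 8.82 and then 8.50, 8.70 and 8.57, a change of -0.32 ± 0.15 (adjusted p = 0.29). The dual-specificity phosphatase DUSP1, a brake on MAP kinases, changed by 0.01 ± 0.21 and lay 2.04 above vehicle at 72 h. SNAI2, a repressor of epithelial genes, changed by -0.03 ± 0.17, SERPINB5, maspin, by -0.41 ± 0.21, IL32, a cytokine, by 0.12 ± 0.18 and YPEL5 by 0.30 ± 0.18, and none passed. The promoters of ABCA1 and SEL1L3 are shown as the stayed genes with the largest 24 h response. They lie at chr9:104928156-104928405 and chr4:25863567-25863816, both on the minus strand of GRCh38.p14 (RefSeq). Of the motifs searched a CCAAT box at -217 of SEL1L3 was found, in capitals, and none in ABCA1.
ABCA1: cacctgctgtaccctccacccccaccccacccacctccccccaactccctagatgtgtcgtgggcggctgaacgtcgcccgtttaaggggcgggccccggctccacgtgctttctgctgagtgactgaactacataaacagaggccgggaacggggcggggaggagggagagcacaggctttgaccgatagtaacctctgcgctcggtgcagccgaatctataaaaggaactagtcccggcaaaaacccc
SEL1L3: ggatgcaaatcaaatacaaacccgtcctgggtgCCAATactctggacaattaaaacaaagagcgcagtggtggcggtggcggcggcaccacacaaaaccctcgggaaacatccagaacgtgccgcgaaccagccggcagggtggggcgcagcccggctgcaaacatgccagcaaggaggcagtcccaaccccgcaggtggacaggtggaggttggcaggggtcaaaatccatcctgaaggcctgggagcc

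Among the 27 named genes that stayed lower, RAD21, a subunit of cohesin, which holds sister chromatids together, had the largest 24 h fall. It read 8.64, 8.45 and 8.51 at 24 h and 8.83, 9.09 and 8.95 at 72 h, with vehicle at 9.61 to 9.81 at 72 h. The 72 h arrays lay above the 24 h arrays but the change of 0.42 ± 0.13 did not pass (adjusted p = 0.077). With the authors' scaled intensities RAD21 rose with a call (0.43, adjusted p = 0.035). C9orf140 (SAPCD2) changed by 0.39 ± 0.16 (adjusted p = 0.19), although a second probe of the gene rose by 0.76 with a call. The loci LOC389816 (0.30, adjusted p = 0.66) and LOC648822 (0.48, adjusted p = 0.21) did not pass either.

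A small set of genes rose further, or rose after 24 h without a called 24 h response. COL4A1, a chain of basement membrane collagen IV and a TGF-beta target, read 5.15, 5.27 and 5.19 at 24 h of drug, not well above background, and 7.25, 7.60 and 7.75 at 72 h. It was not well above background on the vehicle 72 h arrays either. It was at least 4.08-fold higher at 72 h than at 24 h of drug (adjusted p = 1.6e-08). CPA4, a secreted carboxypeptidase, read 8.53, 7.99 and 8.94 and then 10.38, 10.57 and 10.13, above vehicle at both times (6.12 to 7.36). The rise of 1.87 ± 0.44 (adjusted p = 0.012) lost its call without drug 24 h replicate 2 (adjusted p = 0.0698). MFAP5, a microfibril protein of the matrix, rose by 1.33 ± 0.18 (adjusted p = 2.4e-05) from 9.43, 9.15 and 9.78 to 10.85, 10.91 and 10.60, with no overlap.

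F3, tissue factor, which starts coagulation, rose by 1.05 ± 0.23 (adjusted p = 0.0064) from 8.17, 8.55 and 8.66 to 9.58, 9.16 and 9.79. A second probe of F3 gave 0.73 and did not pass (adjusted p = 0.055). CADM4, a cell adhesion molecule, read 7.09, 6.36 and 7.35 and then 8.27, 8.53 and 8.18, a rise of 1.40 ± 0.29 (adjusted p = 0.0037). That call was lost when only the 12 AsPC-1 arrays were fitted (adjusted p = 0.0717). Among unannotated loci LOC100130506 rose by 0.79 ± 0.16 (adjusted p = 0.004) and LOC652846 by 0.98 ± 0.28 (adjusted p = 0.047), the latter losing its call without any of 4 of the 6 treated arrays or without vehicle 72 h replicate 1. Most other members of their lists did not pass. Of 10 named mesenchymal genes 1 rose (F3, against 3.33% of all probes) and 9 did not pass. Among the 9 were LAMA3, a laminin chain (-0.72, adjusted p = 0.43), the caveolar protein CAV1 (0.07) and IGFBP3 (-0.42). LAMA3 fell with a call in some alternative fits, for example with only the 12 AsPC-1 arrays (adjusted p = 0.0191). Of 4 named TGF-beta targets 1 rose (COL4A1, against 3.33% of all probes) and 3 did not pass. All 4 were higher than vehicle at 72 h (3.26% of all probes).

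Falls under continued drug were fewer. HBA1, an alpha-globin gene, read 9.27, 8.96 and 9.25 at 24 h of drug and 6.66, 6.51 and 7.38 at 72 h. Vehicle arrays at both times (8.81 to 9.59) lay with the drug 24 h arrays, and the fall was -2.31 ± 0.21 (adjusted p = 1.7e-07). The neighbouring HBA2 fell by 1.82 (log2 -1.82 ± 0.21), but the coding sequences of both genes are nearly identical, so the probes may not tell them apart. MYO1A, a brush border myosin, read 8.19, 8.33 and 8.45 and then 6.23, 7.07 and 7.06. These were the lowest AsPC-1 arrays for the gene, and the change was -1.54 ± 0.28 (adjusted p = 0.0011).

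CIDEB, a lipid droplet protein, fell without a called 24 h response (-1.31 ± 0.22, adjusted p = 0.00042). So did C10orf116 (ADIRF, at -1.37 ± 0.30, adjusted p = 0.0061) and the tetraspanin-like TM4SF5 (-0.94 ± 0.21, adjusted p = 0.0077). C10orf116 lost its call without drug 72 h replicate 2 (adjusted p = 0.0532) and TM4SF5 without drug 72 h replicate 1 (adjusted p = 0.0629). Of 9 named genes that returned from above, 5 ended below vehicle with a call. ALDH3A1, an aldehyde dehydrogenase, read 11.31, 11.47 and 11.28 at 24 h of drug and 9.98, 10.24 and 10.34 at 72 h, against 11.09 to 11.32 in vehicle at 72 h. It fell by 1.17 (log2 -1.17 ± 0.17, adjusted p = 7e-05) and lay 1.03 below vehicle (log2 -1.03). C20orf118 (TLDC2; -1.33 ± 0.19), EPHX2, soluble epoxide hydrolase (-0.94 ± 0.15), GOLT1A (-0.78 ± 0.15) and ABCG1 were the other 4. ACCN2 (ASIC1), an acid-sensing channel (-0.89 ± 0.17), FAM116B (DENND6B; -0.90 ± 0.20) and the calcium-activated channel TRPM4 (-0.75 ± 0.20) ended without a called gap. FAM116B lost its call without drug 72 h replicate 1 (adjusted p = 0.055) and TRPM4 without any of 4 treated arrays (adjusted p up to 0.119). C14orf72 (LINC00239), a noncoding RNA, was partly returned at -0.62 ± 0.18 (adjusted p = 0.044) and lost that call without any of the 6 or without vehicle 72 h replicate 1 or 2.

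Among the named genes that were lower at 24 h, 3 fell further by 72 h. CLDN7, a tight junction claudin, read 9.32, 9.24 and 9.24 and then 8.22, 8.50 and 8.55, a change of -0.84 ± 0.13 (adjusted p = 0.00017). RGS2, a brake on G protein signalling, fell from 10.27, 10.58 and 10.43 to 9.79, 9.63 and 9.70 (-0.72 ± 0.14, adjusted p = 0.0017). Neither gene had overlapping arrays. HERC5, an interferon-induced ligase for ISG15, was not well above background on the 3 drug 72 h arrays, and was at least 1.17-fold lower (adjusted p = 0.044). HERC5 lost its call without any of 5 treated arrays or either of 2 vehicle 72 h arrays (replicates 1 and 3), and with the authors' scaled intensities (-0.41, adjusted p = 0.296). In the epithelial list 1 of 5 named genes rose (CADM4, against 3.33% of all probes) and 2 fell (1.51%). Those that fell were CLDN7 and TJP3, another tight junction gene, at -0.74 ± 0.17. The other 2 did not pass, CLDN1 (0.80, adjusted p = 0.082) and CEACAM1 (-0.56, adjusted p = 0.22). TJP3 lost its call without drug 72 h replicate 1 (-0.51, adjusted p = 0.0767) and when only the 12 AsPC-1 arrays (adjusted p = 0.0634) or the 6 treated arrays (adjusted p = 0.153) were fitted. CLDN1 rose with a call in 5 alternative fits, for example with array weights (adjusted p = 0.00678).

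Of 12 named interferon response genes 2 fell (HERC5 and OASL, against 1.51% of all probes), 0 rose and 10 did not pass. OASL, an antiviral 2'-5' oligoadenylate synthetase-like protein, read 8.83, 8.43 and 8.43 and then 7.57, 7.49 and 7.26, a fall of 1.12 (log2 -1.12 ± 0.21, adjusted p = 0.0014). Its level at 72 h was the lowest of the 4 AsPC-1 groups. IFI6 (0.28, adjusted p = 0.53) and UBE2L6, an ISG15-conjugating enzyme (0.24, adjusted p = 0.53), did not pass, nor did the immunoproteasome genes PSMB9 (-0.20) and PSMB10 (-0.24) of the 3 named antigen presentation genes. At 72 h 6 of the 12 interferon genes lay below vehicle, against 2.79% of all probes. In the difference from vehicle 1 of the 12 passed, UBE2L6 (-0.90), the member with the largest rise in vehicle (1.14). That call was lost in 10 alternative fits (adjusted p up to 0.216). The falls of OASL and HERC5 under drug thus had no called difference from vehicle.

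Some named genes changed mainly in vehicle, so that the gap between drug and vehicle moved although treated cells changed little. GPX2, an intestinal glutathione peroxidase, read 5.60, 5.43 and 6.13 at 24 h of drug and 5.91, 6.51 and 6.94 at 72 h, which overlapped. In vehicle it rose from 7.27, 6.79 and 6.68 to 9.64, 9.88 and 9.98. The rise under drug was 0.74 ± 0.20 (adjusted p = 0.037), the rise in vehicle 2.92, and the difference -2.18 ± 0.29 (adjusted p = 7.8e-05). GPX2 and MMP7, matrilysin, counted as partly returned by the rule used here, yet lay further below vehicle at 72 h (-3.38 and -2.03) than at 24 h (-1.20 and -0.99). MMP7 rose by 0.88 ± 0.25 under drug (adjusted p = 0.042) and by 1.93 in vehicle, with a difference that did not pass (-1.05, adjusted p = 0.12). Both lost the call under drug without any of 4 treated arrays (adjusted p up to 0.229 for GPX2 and 0.223 for MMP7), and MMP7 also without vehicle 72 h replicate 3. With the authors' scaled intensities GPX2 changed by 0.30 under drug without a call (adjusted p = 0.283).

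**Figure D4:**
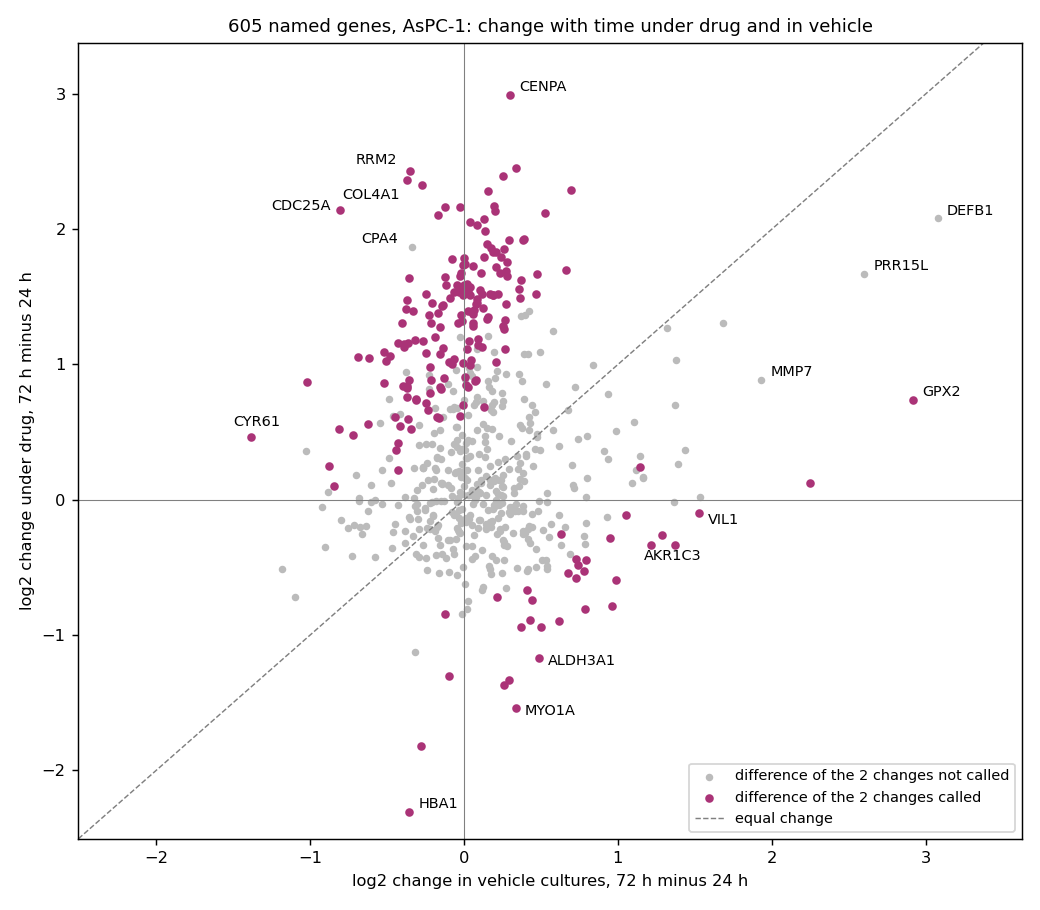
Each of the 605 named genes is placed by its log2 change between 24 h and 72 h in vehicle (horizontal) and under drug (vertical), with the dashed line marking equal change. CENPA, RRM2 and COL4A1 were called higher under drug and not in vehicle, with a called difference, GPX2 rose by 2.92 in vehicle and 0.74 under drug, and DEFB1 rose in both. Coloured points are genes with a called difference between both changes.

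VIL1, villin of the brush border, was detected on 2 of 3 vehicle arrays at 24 h, all 3 at 72 h and on none of the 6 treated arrays, so only its vehicle change could be sized (1.53, adjusted p = 0.0097). The aldo-keto reductases AKR1C3 and AKR1C4 rose in vehicle by 1.29 and 1.22 and changed by -0.26 and -0.33 under drug, a difference of -1.55 for each (adjusted p = 0.0018 and 0.004), which did not pass when only the 12 AsPC-1 arrays were fitted (adjusted p = 0.0678 and 0.0948). Probes of these related genes may share signal. Of 11 named redox and drug metabolism genes 2 rose under drug (3.33% of all probes), 1 fell (1.51%) and 8 did not pass. In vehicle 5 of the 11 rose (1.35% of all probes). ALDH1A1, a retinal dehydrogenase, rose in both, by 1.04 ± 0.29 under drug (adjusted p = 0.038) and 1.38 in vehicle, although its treated arrays overlapped and the call was lost without any of 4 of them. DEFB1, beta-defensin 1, read 7.37, 6.87 and 8.13 and then 9.02, 9.94 and 9.65 under drug, a rise of 2.08 ± 0.32 (adjusted p = 0.00019), with 3.08 in vehicle and no called difference (adjusted p = 0.29). PRR15L rose by 1.67 ± 0.37 under drug and 2.60 in vehicle. Its call under drug was lost without drug 24 h replicate 2 or drug 72 h replicate 2 (adjusted p up to 0.0606).

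The opposite pattern, a called fall in vehicle with no called change under drug, was seen for ASNS, described above, and for CYR61, PLAU, JUN and PMEPA1. ASNS, PLAU and JUN were the single members of their lists with a called fall in vehicle. CYR61 and PMEPA1 were 2 of the 4 named TGF-beta targets, and all 4 had negative vehicle changes (log2 -1.38 to -0.28). CYR61 (CCN1), a matricellular protein, read 10.40, 10.29 and 10.53 and then 11.08, 10.52 and 11.02 under drug, an overlapping change of 0.46 ± 0.29 (adjusted p = 0.46). In vehicle it fell by 1.38 (log2 -1.38, adjusted p = 0.012), and the difference was 1.85 (adjusted p = 0.011). PLAU, urokinase (0.25 under drug, -0.88 in vehicle), and JUN, a subunit of AP-1 (0.48 and -0.72), had called differences of 1.12 and 1.20. The call for PLAU was lost in 13 of 21 alternative fits (adjusted p up to 0.132). For PMEPA1, a TGF-beta target (-0.25 and -0.66), the difference did not pass (adjusted p = 0.42). IL8 (CXCL8), a chemokine, passed neither under drug (0.18) nor in vehicle (-0.70, adjusted p = 0.13). By contrast 72 of the 80 mitosis genes and 21 of the 25 replication genes rose by more under drug than in vehicle with a called difference, against 1.88% of all probes. Most of these genes, all but 16 and 4, were in the authors' AsPC-1 24 h list. At 24 h 79 and 23 were called lower, and the same drug 24 h arrays enter this difference. Its direction was thus favoured by the selection and is no independent support. Across all 24750 probes the changes under drug and in vehicle, which share no array, correlated at r = 0.10. Probes are not independent replicates.

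COLO-357 cultures under the same drug and times shared no array with AsPC-1. There 5277 probes were called (21.3%), 2805 higher (11.3%) and 2472 lower (9.99%). This balance turned with scaling, to 1546 higher and 5783 lower in the authors' scaled intensities, where the median of all probes was -0.12, and to 2725 and 3046 with the 75th percentile scaling. Between the lines 500 probes (2.02%) were called in the same direction and 48 (0.194%) in opposite directions, and across all probes the changes correlated at r = 0.29. Of the 147 AsPC-1 genes that returned from below, 119 also rose in COLO-357, and of the 38 that partly returned 29 did. The authors' lists that name these genes include their COLO-357 drug lists, drawn from the same COLO-357 arrays. These counts are therefore no independent support. CENPA rose by 2.49 ± 0.23 in COLO-357 (7.23, 7.31 and 7.50 to 9.31, 10.58 and 9.64), RRM2 by 2.36 ± 0.24 and CCNE2 by 2.31 ± 0.28. For these 3 genes the difference between lines did not pass (-0.50, -0.07 and -0.05, each with an SE of 0.33 to 0.40).

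**Figure D5:**
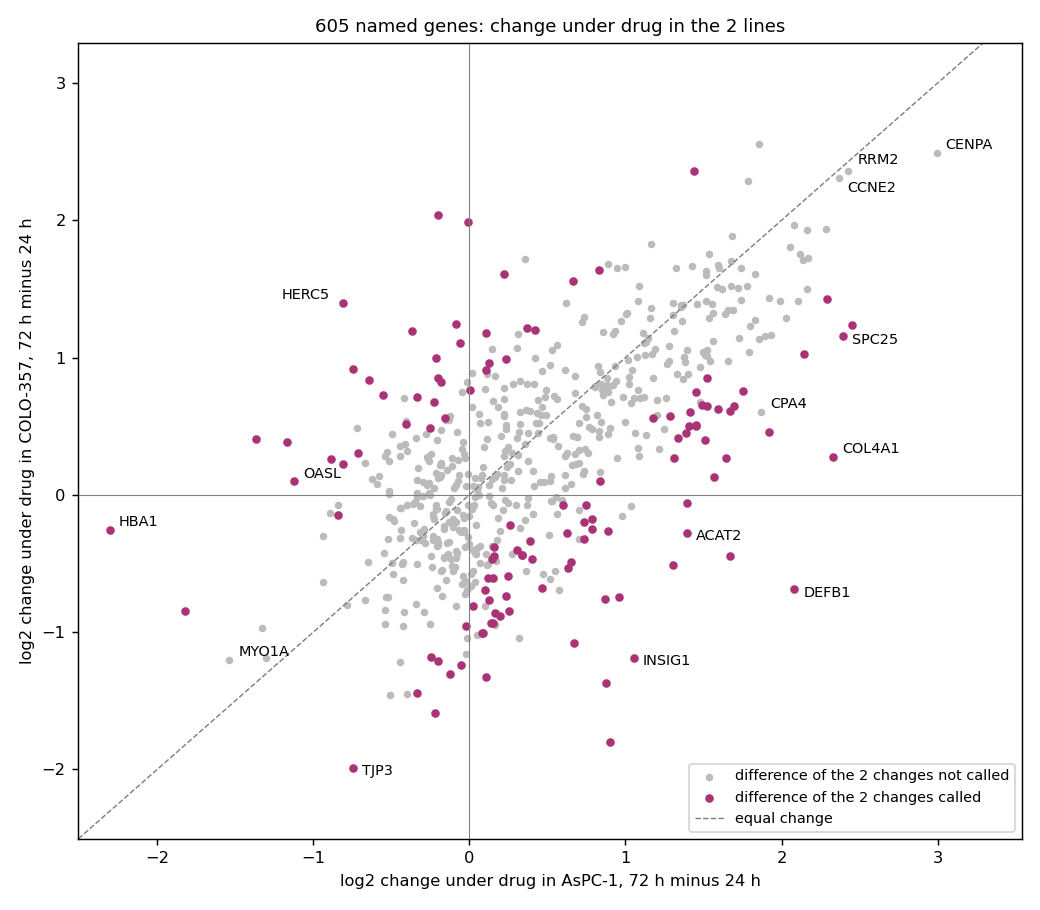
Each of the 605 named genes is placed by its log2 change under drug between 24 h and 72 h in AsPC-1 (horizontal) and COLO-357 (vertical), with the dashed line marking equal change and coloured points a called difference. CENPA, RRM2 and CCNE2 lie high in both lines, while COL4A1, DEFB1, INSIG1 and HBA1 lie away from the line of equal change.

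A test of the difference called 1998 probes (8.07%), 1055 with the higher change in COLO-357 (4.26%) and 943 with the lower (3.81%). Which side held more probes depended on scaling as well, since the authors' scaled intensities placed 457 on the higher and 3307 on the lower side (median of all probes -0.14) and the 75th percentile scaling 933 and 1098. The sterol genes were among the named ones. INSIG1 fell in COLO-357 by 1.19 (9.49 to 10.28 at 24 h and 8.51 to 9.14 at 72 h) where it rose in AsPC-1, a difference of -2.24 ± 0.32 (adjusted p = 0.00031). For ACAT2 the difference was -1.67 ± 0.21 (adjusted p = 7.4e-05) and for DHCR7 -1.63 ± 0.21. COL4A1 was high in COLO-357 at both times (11.71 to 12.25) and changed there by 0.28 ± 0.17. Its AsPC-1 level at 24 h was not well above background, so the difference has only a bound, -1.75 or further below 0 (adjusted p of the fit = 4.1e-05). HERC5 went the other way, with a rise of 1.40 ± 0.23 in COLO-357. Since HERC5 was not well above background in AsPC-1 at 72 h of drug, its difference is bounded at 1.62 or more (adjusted p of the fit = 0.00035). HBA1 in COLO-357 was detected on 1 of 3 arrays at each time, so its difference of 2.05 compares a falling level with one near background. MYO1A fell in both lines (-1.54 and -1.20).

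Named genes of other lists were mostly without calls under drug. No member passed among 4 quiescence genes (TXNIP 0.11, ERBB3 -0.54, YPEL5 0.30), 4 immediate early genes (RHOB -0.02), and 3 hypoxia and glycolysis genes (CA9 0.16, ALDOC -0.12). MXD4, a MAX partner that opposes MYC, changed by -0.35 (adjusted p = 0.4). Of 5 inflammatory factors 1 rose (DEFB1, against 3.33% of all probes), and CCL5 (-0.30) and IL20RB (0.11) did not pass. Of 7 named mucin and ductal genes 1 rose (GPX2, against 3.33% of all probes), 1 fell (MYO1A, against 1.51%) and 5 did not pass. Among the 5 were the secreted AGR2 (0.57, adjusted p = 0.67) and MUC5AC, not well above background at 24 h of drug (adjusted p = 0.72). Of the cell type markers the epithelial tumour antigen MSLN was named and read 11.05 to 11.50 on the treated arrays. The fibroblast marker ACTA2 read 7.41 to 7.87 at 24 h and 8.25 to 8.56 at 72 h (0.70, adjusted p = 0.17), and markers of acinar, islet, endothelial and immune cells had 0 named genes, so their part in the results was not tested.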

How the data were processed

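Per the labels, RNA of each culture was extracted with QIAGEN RNeasy kits, amplified and biotin-labelled with an Illumina TotalPrep kit and hybridised to 1 bead array. The deposited table holds 1 linear intensity per probe and array, not normalised, with a detection p-value beside it, per the file headers. No source used here names the software behind it. The authors also gave a value table, in which each value was found to be the deposited intensity times 1 factor per array. The authors' 6 lists of changed genes give a ratio of treated over control, and only their probe IDs and gene symbols were used. They name 685 tested probes with 605 symbols; 2 listed probes had no symbol. Of the symbols 462 equal a current RefSeq symbol, 74 only an older one and 69 neither, and deposited names were kept. Of 77 genes with several named probes 9 differed in call. The probe with the highest mean level stood for its gene.

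The neqc function of limma 3.58.1 (R 4.3.3) corrected background from the detection p-values, applied quantile normalisation and gave log2 values after adding 16. Testing was limited to the 24750 of 47223 probes detected (p under 0.05) by 3 or more arrays. Group means over the 24 arrays came from lmFit and eBayes (16 residual and 5.84 prior degrees of freedom), which pools the spread over groups. Two-sided p-values were adjusted (Benjamini-Hochberg) across the tested probes, with 0.05 as the threshold. A probe with no detection on any array of 1 group was given a lower bound, the brighter group's mean over, per array, the higher of the dimmest detected probe and the probe's own signal. The limma calls of the change under drug were tried on simulated normalised values. That simulation did not cover background correction, normalisation, lower bounds or classes. The number of arrays limits the precision.

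Named in the text were the 12 largest rises and falls, the 4 largest 24 h effects of each class and direction, up to 4 members of each gene list and a fixed set of genes, with members outside these named where they were exceptions to a list's count. Members and lists were chosen with earlier results of these data known. Replicate numbers were not used as pairs in the main fit. Same-numbered deviations of the AsPC-1 groups correlated at -0.051 to 0.12, and those of COLO-357 were not examined. A replicate block raised the calls under drug from 1198 to 1476 and in vehicle from 535 to 872. Whether same-numbered cultures share an effect was not tested. Promoter sequences came from RefSeq (GRCh38.p14). Alternatives are listed at the end. Plots used matplotlib 3.10.9 (Python 3.11.15).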

Additional observations from a re-analysis of the deposited data

Results flagged for a closer look

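The change under drug between 24 h and 72 h differed between the cell lines, by the limma test of the difference itself, for 35 of the 117 genes named here. Values are log2 changes in COLO-357 minus those in AsPC-1, each with an adjusted p under 0.05, against 8.07% of all probes called. Many of these genes were named for a large change on the AsPC-1 drug arrays, which enter this difference. The authors' lists that name them also draw on the drug arrays of both lines. The number of flagged genes was thus favoured by the selection and is no independent support. Medium differs with the line and cannot be told apart from it. For 4 of these genes AsPC-1 was not well above background at 1 of the times, so the fitted value below has only a bound, which is 1.62 for HERC5, -0.44 for FAM64A, -0.76 for CDC25A and -1.75 for COL4A1. Of the 35 genes 13 lost the call with the authors' scaled intensities or the 75th percentile scaling (ABCG1, ACCN2, CDC25A, CDC25C, CLDN7, FAM64A, GPX2, HBA2, IL32, PMEPA1, RAD21, RPA3 and TXNIP), and 4 more (C9orf140, CADM4, FEN1 and MFAP5) in another alternative fit. In groups of 3 arrays no test for an outlying sample was made.

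In 16 genes the value was higher in COLO-357. Interferon-induced genes were among them, with 2.21 for HERC5 and 1.22 for OASL. The globin genes gave 2.05 (HBA1, near background in COLO-357) and 0.97 (HBA2). Metabolic and transport genes gave 1.56 for ALDH3A1, 1.04 for ABCG1, 1.66 for TRPM4 and 1.15 for ACCN2. Junction and adhesion genes gave 0.70 for CLDN7 and 1.28 for CEACAM1. The remaining higher values were 1.78 for C10orf116, 1.07 for TXNIP, 1.02 for RGS2, 0.84 for IL32, 0.78 for the cohesin gene RAD21 and 0.74 for PMEPA1.

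In 19 genes the value was lower in COLO-357. Sterol genes gave -2.24 for INSIG1, -1.67 for ACAT2, -1.63 for DHCR7 and -1.16 for HMGCS1. Cell cycle genes, most of which rose in both lines, gave -1.24 for SPC25, -1.21 for CDC25C, -1.11 for CDC25A, -0.87 for FAM64A, -0.77 for RPA3 and -0.61 for FEN1. Matrix and adhesion genes gave -2.05 for COL4A1, -1.46 for CADM4, -1.24 for TJP3 and -0.92 for MFAP5. The others were -2.77 for DEFB1, -2.11 for PRR15L, -0.96 for LOC100130506, -0.93 for GPX2 and -0.72 for C9orf140.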

How the results depend on the processing

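No gene value that passed in the main or the alternative setting changed sign, but 104 of 7362 values without a call in either did, as for RHOB (-0.24 to 0.28 on leaving out treated arrays). The balance of higher and lower probes turned for the line difference under the authors' scaled intensities and the 75th percentile scaling (933 higher and 1098 lower). Named mitosis genes higher under drug numbered 77 to 79 of 80 and replication genes 22 to 23 of 25 over all alternatives. Counts of calls moved more. Log2 changes of named genes moved over 1.5 times for 18 genes in the authors' scaled intensities and 13 without background correction. Fitting only the 12 AsPC-1 arrays gave 726 calls under drug, 114 in vehicle and 365 in their difference, with 50 partly returned, 262 stayed, 1058 with neither later call and 233 late. Only the 6 treated arrays gave 714. The authors' scaled intensities gave 450 for the difference, 3764 for the line difference (457 higher and 3307 lower), 142 and 6 for 2-fold rises and falls and 52 partly returned. The 75th percentile scaling gave 307 in vehicle (237 higher and 70 lower), 466 for the difference, 22 for 2-fold falls, 50 partly returned and 325 late. Without background correction 2-fold rises and falls were 136 and 8. Probes detected on all 3 arrays of a treated group (15952) gave 121 partly returned. At an adjusted p under 0.01 there were 638 calls under drug, 144 in vehicle, 343 for the difference, 649 for the line difference, 397 returned, 21 partly returned, 180 stayed, 9 further, 876 with neither later call and 211 late. With a replicate block vehicle had 872 calls, 38 probes went further and 1476 were called under drug. Array weights gave 350 in vehicle, 3138 for the line difference, 890 with neither later call and 760 late. The cause of these moves was not tested, except that a stricter threshold lowers the number of calls by construction.

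Leaving out 1 array at a time gave 853 (without drug 72 h replicate 1) to 1672 calls under drug (without vehicle 24 h replicate 1), 145 (vehicle 72 h replicate 2, or 314 without replicate 3) to 861 in vehicle (vehicle 24 h replicate 2), 489 (vehicle 72 h replicate 2, or 499 without drug 72 h replicate 1) to 1022 for the difference and 1479 to 2864 for the line difference. The 2-fold rises ranged over 289 to 353 and falls over 42 to 78 (without drug 24 h replicate 3, or 72 without replicate 1). Classes ranged over 476 to 662 returned, 27 (drug 72 h replicate 3, with 36 and 50 without its replicates 1 and 2, and 52 and 41 without vehicle 72 h replicates 1 and 2) to 113 partly returned, 271 (vehicle 72 h replicate 2) to 470 stayed, 11 (drug 24 h replicate 3, or 15 without replicate 2) to 42 further (vehicle 24 h replicate 1), 1096 (drug 24 h replicate 2) to 1982 with neither later call and 305 (drug 72 h replicate 3, or 311 without replicate 1) to 855 late (vehicle 24 h replicate 1). Over all settings the change under drug of a named gene lost its call 121 times and gained one 27 times. Besides CHEK1, RAD21, ADM2, LAMA3 and CLDN1, the genes that gained a call included HMGCS1, CEACAM1, JUN, ERBB3, C6orf173 and ACTA2. Mitosis genes numbered 78 to 79 and replication genes 22 to 23. Dim probes limit the precision of folds for genes near background at 24 h of drug.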
